A study of Mus musculus with 6 samples.

Results

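The genes described here are the chromosome 8 neighbours of Msr1, the gene of the class A scavenger receptor SRA that is disrupted in the mutant mice of this study. They are the rows of the deposited gene table whose start lies within 10 Mb of either end of Msr1, between positions 30034726 and 50095714 of chromosome 8 (mm39), without Msr1 itself and without Nrg1. Distances below run from the nearer end of Msr1 to a gene's lowest coordinate. The rule uses position alone, and it gives 282 of the 53546 genes in the table. Of these, 129 lie on the centromeric side and 153 on the telomeric side. By gene symbol, 90 are protein coding, 71 are pseudogenes and 85 are long noncoding RNA genes, while 9 could not be matched to a type.

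The study set 3 SRA-/- libraries against 3 wild type libraries. Each is total RNA of primary non-parenchymal liver cells from male mice, taken 6 h after an injection of acetaminophen at 400 mg/kg. All mice of both groups received the drug. The labels give no strain, age, number of backcrosses or disrupted exon.

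Genes that lie close together on a chromosome are inherited together. In a mutant line bred onto another strain, the stretch around the targeted gene can therefore keep the alleles of the strain in which the mutation was made, and its genes can differ from those of the controls for reasons other than the loss of the targeted gene. Counts per gene do not show which alleles were read, so the origin of the stretch was not tested.

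Msr1 lies at positions 40034726 to 40095714 of chromosome 8, on the minus strand. It had 1848, 1005 and 925 counts in the SRA-/- libraries, against 1123, 1936 and 3838 counts in the wild type libraries. As CPM, the counts scaled to library size with TMM factors, this was 38.6 ± 4.44 in SRA-/- and 75.2 ± 37.6 in wild type (SD, n = 3 each). The log2 fold change of SRA-/- over wild type was -0.96 ± 0.33 (SE). In edgeR's quasi-likelihood test the unadjusted p of Msr1 was 0.0166 and the adjusted p was 0.9999. The SRA-/- range of 33.6 to 42.0 CPM included wild type replicate 1, at 38.6 CPM. The counts cover all exons of Msr1, so reads from a disrupted transcript would be included.

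The libraries held 23757203 to 44003902 counts in SRA-/- and 25061773 to 32520128 counts in wild type. Each mate of a read pair was counted, so a count of 0 allows up to 6 counts (3 fragments). This is 0.131 to 0.272 CPM over the libraries. Such limits cover counting error only. The neighbours of Msr1 took 0.401% to 0.482% of the counts in SRA-/- and 0.347% to 0.491% in wild type. All 8 sinusoidal endothelial, 8 Kupffer cell and 18 hepatocyte markers had counts in every library. The summed hepatocyte markers ranged over 63008 to 122116 CPM in SRA-/- and 35153 to 103268 CPM in wild type. The summed neutrophil markers ranged over 35 to 144 CPM in SRA-/- and 12 to 31.7 CPM in wild type. All 5 neutrophil markers had an unadjusted p under 0.05 in edgeR, with a median log2 fold change of 2.26. The summed B cell markers ranged over 16.7 to 24.7 CPM in SRA-/- and 8.20 to 10.4 CPM in wild type, with 3 of 5 at an unadjusted p under 0.05 in edgeR. The summed pancreatic acinar markers were 2.18, 256 and 2.36 CPM in SRA-/- and 363 to 700 CPM in wild type. The part of these differences in the results that follow was not tested, except where a value is given. In bulk RNA, fewer cells of a type and less RNA per cell cannot be told apart. The titles call the replicates biological, with nothing on separate animals, so p-values measure the spread between these libraries.

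Of the 282 neighbours, 99 passed the filter on low counts and were tested, 66 of them protein coding. Another 107 had no count in any library, and the remaining 76 had at most 63 counts over all 6 libraries. In the edgeR test with Benjamini-Hochberg adjustment over all 20541 genes tested, 2 neighbours fell in SRA-/- at an adjusted p under 0.05, and 0 rose. They are Gm5345 and Gm16348, both on the telomeric side. Over all genes tested, 0.0487% passed, which is 10 genes. At an unadjusted p under 0.05, 17 of the 99 neighbours passed, or 17.2%, against 3.22% of all tested genes. Of these 17, 12 were lower in SRA-/-, where 0.896% of all genes were, and 5 were higher, where 2.32% of all genes were. For 19 neighbours the 3 SRA-/- values and the 3 wild type values did not overlap, or 19.2%, against 7.30% of all genes tested. The 12 lower ones were Gm5345, Gm16348, Pcm1, Trmt9b, Tnks, Dusp4, Gm26978, Gm26632, Rbpms, AC127551.1, Gsr and Wrn, and the 5 higher ones were Zdhhc2, Mtus1, Fgl1, Lonrf1 and Gm45244. Where no adjusted p is given for one of these, it was 0.9999 in edgeR. DESeq2 and limma-voom called 0 neighbours higher as well.

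Leaving out SRA-/- replicate 1 left 1 called neighbour, and leaving out either SRA-/- replicate 3 or wild type replicate 2 left 0. Over all tested genes 4, 3 and 4 were called in these settings, or 0.0189%, 0.014% and 0.0187%, against 10 with all 6 libraries. Leaving out wild type replicate 1 gave 3 called neighbours, with Dusp4 added, and 13 called genes over all tested, or 0.0612%. DESeq2 called 4, adding Dusp4 and AC127551.1, and it called 0.331% of all tested genes. The number at an unadjusted p under 0.05 stayed between 12 and 18 when any 1 library was left out, while 2.02% to 7.01% of all genes passed. With 2 libraries against 3, groups that did not overlap were commoner over all genes. The number was then 20 to 35, or 19.4% to 33.7% of the tested neighbours, against 12.1% to 24% of all genes. It was 32 without SRA-/- replicate 2, 35 without wild type replicate 1 and 30 without wild type replicate 3, where 17.5%, 24% and 16.6% of all genes did not overlap. Of the 17 genes, 8 stayed at an unadjusted p under 0.05 with any 1 library left out. Trmt9b and Gm45244 stayed in 5 of the 6 cases and Fgl1 in 4, while Wrn, Gsr, Rbpms, Lonrf1 and Mtus1 stayed in 2 and Tnks in 1.

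**Figure D1:**
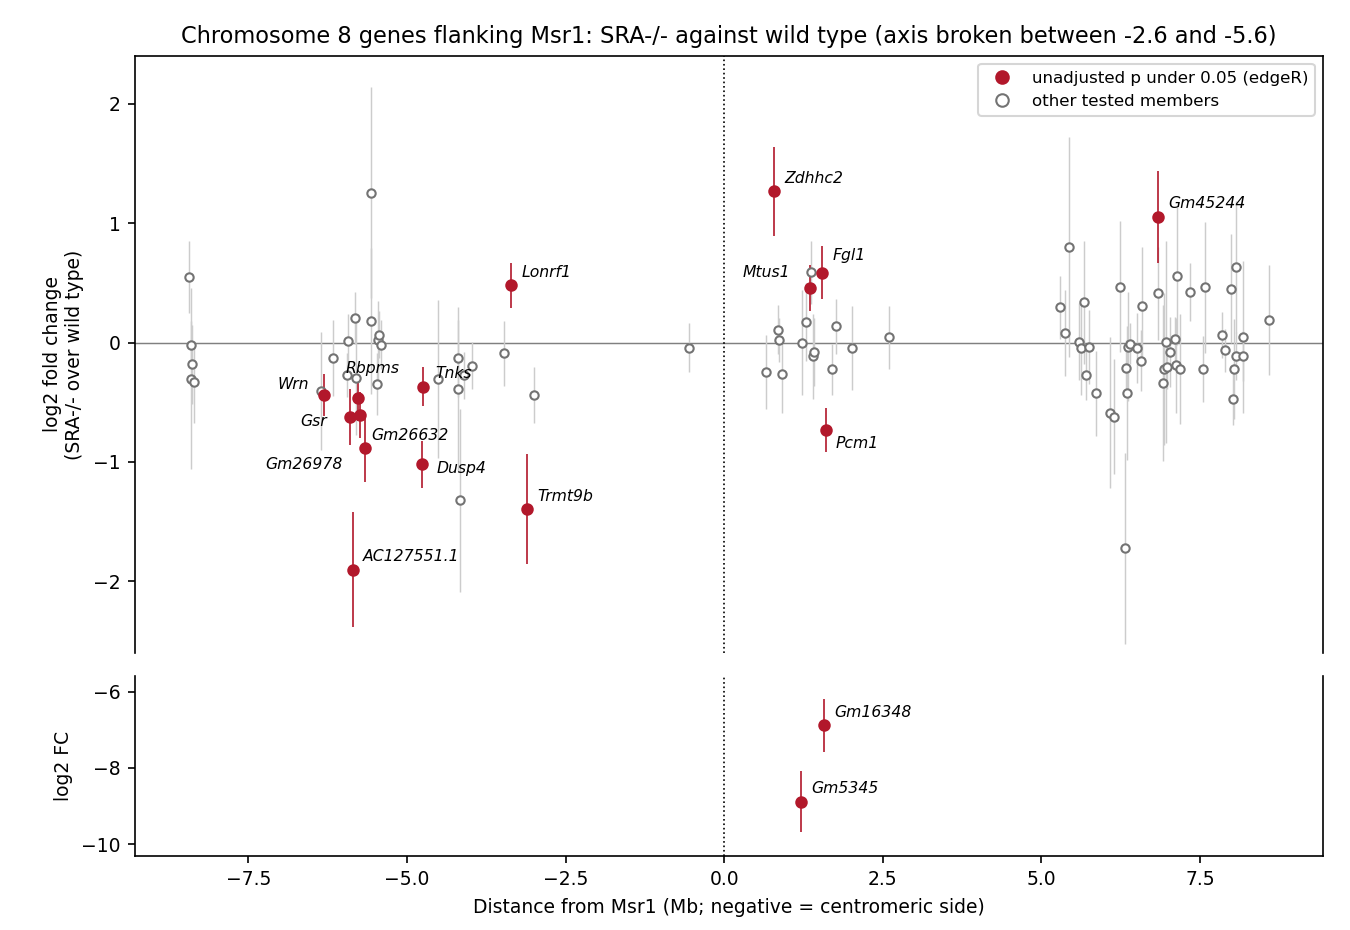
Log2 fold change of SRA-/- over wild type (vertical axis, broken between the panels; bars are SE) against distance from Msr1 in Mb (horizontal axis, centromeric side negative) for the 99 tested neighbours. The 17 with an unadjusted p under 0.05 in edgeR are filled and named; 16 of them lie between Wrn and Pcm1, and the fitted values of Gm5345 and Gm16348 in the lower panel depend on how counts at or near 0 are treated.

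The distances of the differing neighbours were uneven. The rest of chromosome 8 had 39 of 979 tested genes at an unadjusted p under 0.05, or 3.98%, and 0 called genes. On the centromeric side 10 of 36 tested neighbours reached this level, 9 of them lower in SRA-/-, and on the telomeric side 7 of 63 did, 3 of them lower. Within 2 Mb of Msr1, counting both sides, 6 of 18 did. Between 2 and 5 Mb the number was 4 of 14, and between 5 and 10 Mb it was 7 of 67. The 45 tested neighbours from Wrn to Pcm1, a stretch of 8.06 Mb at positions 33724412 to 41785381, held 16 of the 17. Centromeric of Wrn 0 of 6 tested neighbours reached this level, and telomeric of Pcm1 1 of 48 did. Msr1 and Nrg1 also lie in the window but are in none of these counts, so the ends of the stretch hold for the neighbours alone. The ends of this stretch were chosen after the values were seen, so these counts are a description only.

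**Figure D2:**
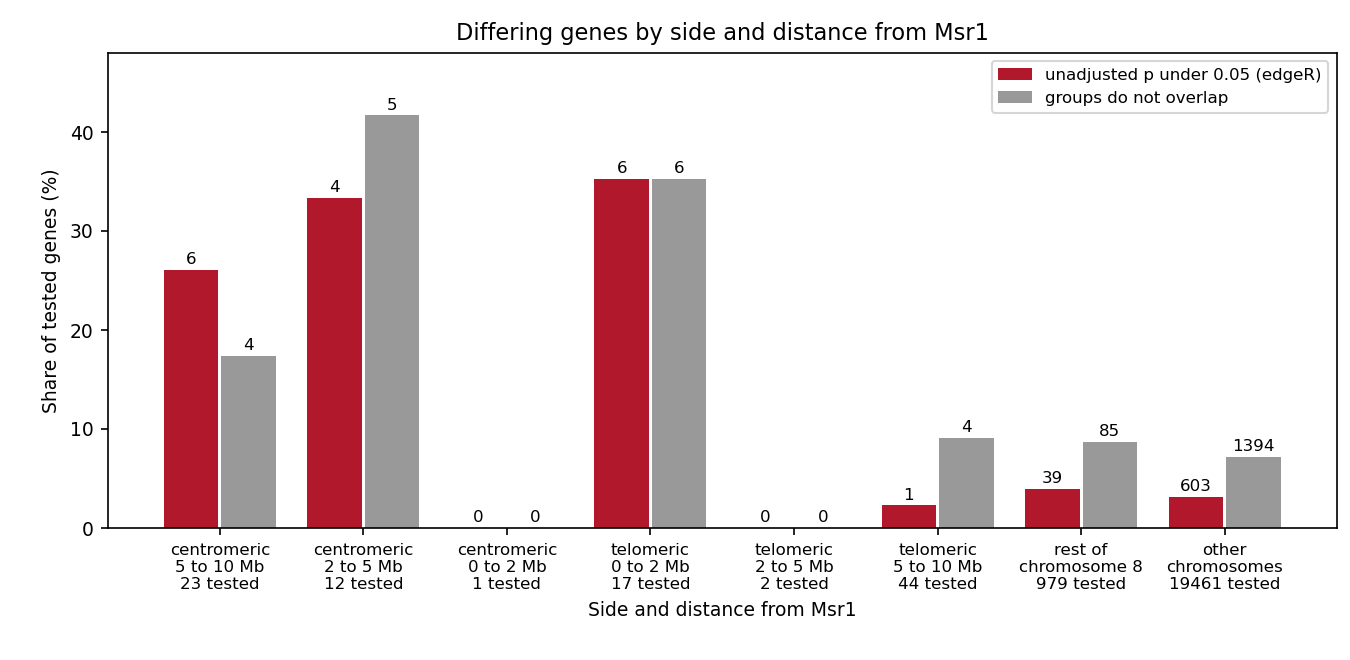
Share of tested genes in percent (vertical axis, from 0) by side and distance from Msr1, for genes with an unadjusted p under 0.05 and for genes whose SRA-/- and wild type values did not overlap. The centromeric side held 10 of 36 tested genes at an unadjusted p under 0.05, and the telomeric stretch from 5 to 10 Mb held 1 of 44.

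Fold changes also differed in size and direction by side. The median log2 fold change of the 99 tested neighbours was -0.09, against -0.01 over all tested genes, and the median absolute log2 fold change was 0.27, against 0.17. This absolute median was 0.32 on the centromeric side and 0.22 on the telomeric side. For protein-coding neighbours it was 0.22 and for the others 0.39, and the value over all genes was not split by gene type. With 1 library left out, the neighbours' median ranged from -0.15 without SRA-/- replicate 2 to -0.02 without wild type replicate 1, where the medians of all tested genes were -0.02 and 0.02. On the centromeric side 28 of 36 fold changes were below 0, with a median of -0.28. On the telomeric side 35 of 63 were below 0, with a median of -0.04. Over all tested genes 51.7% were below 0. Protein-coding neighbours reached an unadjusted p under 0.05 in 11 of 66 cases, and the others in 6 of 33. The counting did not use strand, and 35 tested neighbours share exonic bases with another gene. Among the 64 that share none, 13 reached this level and 14 had groups that did not overlap. These are 20.3% and 21.9%, against 3.22% and 7.30% of all tested genes.

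Gm5345 showed the most complete difference between the groups. It is a processed pseudogene, 1.21 Mb telomeric of Msr1 at positions 41306865 to 41308064 on the minus strand, 7368 bp from Slc7a2. It had 0 counts in each of the 3 SRA-/- libraries, against 67, 46 and 55 counts in the wild type libraries. All SRA-/- libraries were therefore below all wild type libraries. In CPM this was 0 in SRA-/- and 1.89 ± 0.36 in wild type (SD, n = 3 each). Taken against 6 counts over the group, the level was at least 30.7-fold lower in SRA-/-, and the adjusted p in edgeR was 0.0224. Leaving out SRA-/- replicate 1 gave 0.118, leaving out SRA-/- replicate 3 gave 0.0784 and leaving out wild type replicate 2 gave 0.101.

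The sequence of Gm5345 resembles Gapdh, the glycolytic enzyme gene on chromosome 6, and it aligned to a Gapdh transcript with 90.8% identity over 1016 bases. Transcripts of 333 other genes also matched it, so its reads are uncertain where near-identical copies can share them. Gapdh itself averaged 37.2 ± 2.48 CPM in SRA-/- and 29.5 ± 4.74 CPM in wild type (SD, n = 3 each). Its log2 fold change was 0.33 ± 0.18 (SE), and it was not called. The other Gapdh-like pseudogenes among the neighbours are Gm8254, Gm5787, Gapdh-ps14, Gm2221 and Gm10313. They had 0 counts in every library, apart from 2 counts of Gapdh-ps14 in wild type replicate 3.

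Gm16348 is a noncoding transcript gene, 1.58 Mb telomeric of Msr1 at positions 41671176 to 41673931 on the plus strand. It lies 2982 bp from Fgl1 and 18857 bp from Pcm1. The SRA-/- libraries had 5, 0 and 0 counts, against 241, 177 and 126 counts in the wild type libraries. The highest SRA-/- library, at 0.109 CPM, was below the lowest wild type library, at 3.73 CPM. The means were 0.0363 ± 0.0628 CPM in SRA-/- and 6.24 ± 2.31 CPM in wild type (SD, n = 3 each). Summed over each group, the level was 119-fold lower in SRA-/-, with an approximate 95% interval for counting error of 36.9 to 722. The interval takes 2 counts as 1 fragment, so the 5 SRA-/- counts are not a whole number of fragments. All 5 SRA-/- counts were in replicate 1, so the 119-fold ratio rests on that library. Without it, and taken against 6 counts over the group, the level was at least 52.8-fold lower. The adjusted p in edgeR was 0.0109. Leaving out SRA-/- replicate 3 gave 0.0803, and leaving out wild type replicate 2 gave 0.0639. No transcript of another gene matched its sequence.

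**Figure D3:**
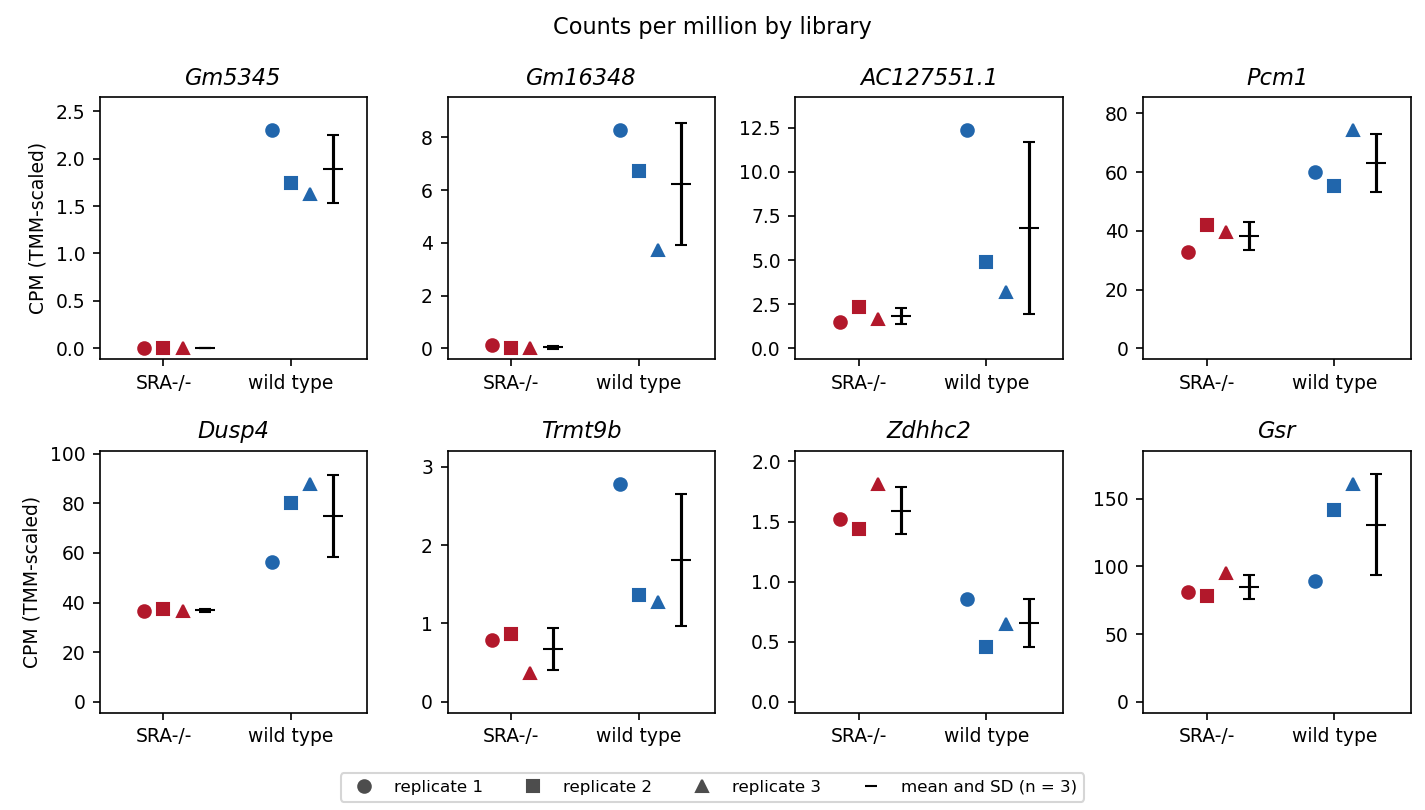
Level in CPM (vertical axis, TMM-scaled, each panel on its own scale from 0) of 8 neighbours in the 3 SRA-/- and 3 wild type libraries, with the mean and SD of each group. Gm5345 was at 0 and Gm16348 at or below 0.109 CPM in SRA-/-, and the SRA-/- and wild type points of Gsr overlap.

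The genes next to these transcripts on the telomeric side differed in direction. Pcm1 encodes a scaffold protein of centriolar satellites, the particles around the centrosome. It lies at positions 41692789 to 41785381, 1.6 Mb from Msr1. Its levels were 32.9, 42.1 and 39.5 CPM in SRA-/-, against 60.0, 55.3 and 74.4 CPM in wild type. All SRA-/- libraries were below all wild type libraries. The log2 fold change was -0.73 ± 0.18 (SE; adjusted p = 0.761 in edgeR). The other genes of centrosome, cilia and kinetochore that were tested are Cenpu, Cfap97 and Fam149a. Of the 4, 0 passed the adjusted test, and Pcm1 was the one with an unadjusted p under 0.05. Their median log2 fold change was -0.30.

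Fgl1 encodes a fibrinogen-like protein secreted by hepatocytes. Its levels were 145, 129 and 214 CPM in SRA-/-, against 107, 115 and 104 CPM in wild type. The groups did not overlap, with SRA-/- the higher, and the log2 fold change was 0.58 ± 0.22 (SE). It was 0.33 without SRA-/- replicate 3, the library with the highest hepatocyte marker sum. With the mean log2 CPM of the hepatocyte markers as a covariate, the log2 fold change was 0.48. Of the other plasma proteins made by hepatocytes, coagulation factor F11 had a log2 fold change of 0.01 ± 0.32 and plasma prekallikrein Klkb1 one of -0.05 ± 0.39 (SE). Of these 3 genes, 0 passed the adjusted test.

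Mtus1, a microtubule-associated protein gene, measured 188, 166 and 235 CPM in SRA-/-, against 144, 142 and 143 CPM in wild type. All SRA-/- libraries were above all wild type libraries. Its log2 fold change was 0.46 ± 0.19 (SE), and it shares exonic bases with B430010I23Rik and Gm16192. B430010I23Rik had a log2 fold change of 0.59 ± 0.27 (SE), and its unadjusted p was above 0.05. The cytoskeletal genes Dlc1, Mtus1, Sorbs2 and Pdlim3 were all tested, with 2 fold changes above 0 and 2 below, and 0 passed the adjusted test. Sorbs2 had a log2 fold change of -0.42 ± 0.36 (SE).

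Zdhhc2 encodes an enzyme that attaches palmitate to proteins, and it lies 0.781 Mb from Msr1 at positions 40876856 to 40963309. It had 1.52, 1.44 and 1.82 CPM in SRA-/-, against 0.859, 0.456 and 0.651 CPM in wild type. All 3 SRA-/- libraries were above all 3 wild type libraries. The log2 fold change was 1.27 ± 0.37 (SE; adjusted p = 0.959 in edgeR). Reads in the exonic bases it shares with Cnot7 cannot be assigned to either gene. Cnot7, a subunit of the complex that shortens poly(A) tails, had a log2 fold change of 0.11 ± 0.20 (SE).

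The other nearest telomeric genes had groups that overlapped. Micu3, a regulator of mitochondrial calcium uptake, is the tested gene nearest to Msr1 on this side, at 0.665 Mb. Its log2 fold change was -0.25 ± 0.31 (SE). The endosomal sorting gene Vps37a had one of 0.02 ± 0.18 and the lipid phosphatase gene Mtmr7 one of -0.26 ± 0.32. Frg1, 1.75 Mb away, had one of 0.13 ± 0.23.

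The centromeric side has a gene-poor interval next to Msr1. AC168314.1, at 0.562 Mb, was the one tested gene within 2 Mb there, with a log2 fold change of -0.04 ± 0.21 (SE). The next was Dlc1, a GTPase-activating protein gene 3.0 Mb away. It had 156, 170.1 and 134 CPM in SRA-/-, against 157, 199.9 and 269 CPM in wild type. Wild type replicate 1 lay within the SRA-/- range, and the log2 fold change was -0.44 ± 0.23 (SE). Prag1, a pseudokinase scaffold gene 3.47 Mb away, had a log2 fold change of -0.09 ± 0.27.

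Dusp4, a phosphatase gene whose product inactivates MAP kinases, had the smallest p among the centromeric genes. It lies 4.76 Mb from Msr1 at positions 35274451 to 35287048 on the plus strand. Its levels were 36.6, 37.6 and 36.4 CPM in SRA-/-, against 56.2, 80.3 and 87.97 CPM in wild type. The 3 SRA-/- libraries lay close together and below every wild type library. The log2 fold change was -1.02 ± 0.20 (SE; adjusted p = 0.438 in edgeR). The adjusted p was 0.0296 without wild type replicate 1, 0.0418 with no filter on low counts, 0.00600 in DESeq2 and 0.0111 in limma-voom. In edgeR it was 0.836 with library totals as scaling, and 0.340 to 0.9999 with any 1 of the other libraries left out. Dusp4 was not called with the replicate number as a block. The summed endothelial markers were 2738, 2607 and 2288 CPM in SRA-/- and 2168, 3089 and 4155 CPM in wild type, where the libraries had the same order as for Dusp4. Their part in the result was not tested. With the mean log2 CPM of the hepatocyte markers as a covariate, the log2 fold change was -0.91 (adjusted p = 0.206 in edgeR).

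Trmt9b, a gene of the tRNA methyltransferase family, and Lonrf1, a RING finger and LON domain protein gene, are adjacent among the tested genes and differed in opposite directions. Trmt9b had 0.783, 0.868 and 0.363 CPM in SRA-/-, against 2.78, 1.37 and 1.27 CPM in wild type. Its groups did not overlap, and its log2 fold change was -1.39 ± 0.46 (SE). It was -0.93 without wild type replicate 1, where its unadjusted p was no longer under 0.05. Lonrf1 had 20.4, 17.5 and 20.02 CPM in SRA-/-, against 11.2, 14.96 and 15.4 CPM in wild type. Its SRA-/- libraries were all above its wild type libraries, and its log2 fold change was 0.48 ± 0.19 (SE).

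Further out, Tnks encodes tankyrase, a poly(ADP-ribose) polymerase of telomeres and Wnt signalling. It measured 73.0, 77.7 and 70.9 CPM in SRA-/-, against 106, 90.6 and 89.5 CPM in wild type. The groups did not overlap, with SRA-/- the lower, and the log2 fold change was -0.37 ± 0.16 (SE). Tnks shares exonic bases with Gm9939. Among the 9 tested genes of phosphatases, kinases and signalling adaptors, 0 passed the adjusted test, while 2 were lower and 1 was higher at an unadjusted p under 0.05. These are Dusp4, Tnks and Lonrf1, of which Dusp4 is the one phosphatase and Tnks and Lonrf1 are neither phosphatases nor kinases. Ppp2cb, a catalytic subunit of protein phosphatase 2A, had a log2 fold change of -0.27 ± 0.18, and Rnf122 one of 0.55 ± 0.30 (SE). Wwc2, on the telomeric side, had one of -0.11 ± 0.21.

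From Wrn to Gm26978, 5.66 to 6.31 Mb centromeric of Msr1, 6 of 11 tested genes were lower in SRA-/- at an unadjusted p under 0.05, where 0.896% of all tested genes were. The ends of this interval were chosen after the values were seen. The 6 genes lie at 3 places, since AC127551.1 lies inside Gsr, and Gm26632 and Gm26978 lie inside Rbpms, so they are not independent counts. Gsr encodes glutathione reductase, which restores reduced glutathione, the thiol that detoxifies the reactive metabolite of acetaminophen. Its levels were 81.0, 78.3 and 95.2 CPM in SRA-/-, against 89.3, 142 and 161 CPM in wild type. Wild type replicate 1 lay within the SRA-/- range, so the groups overlapped. The log2 fold change was -0.63 ± 0.23 (SE). Gsr was the one among 10 tested metabolic enzymes and transporters with an unadjusted p under 0.05, and 0 of the 10 passed the adjusted test.

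AC127551.1 is a 144 bp gene inside Gsr on the same strand, at positions 34181829 to 34181972, so reads from unspliced Gsr transcripts cannot be told apart from its own. It had 1.502, 2.34 and 1.63 CPM in SRA-/-, against 12.4, 4.90 and 3.20 CPM in wild type. The groups did not overlap, and wild type replicate 1 stood highest. The log2 fold change was -1.90 ± 0.48 (SE; adjusted p = 0.761 in edgeR). It was -1.14 without wild type replicate 1, and the adjusted p in DESeq2 was 0.0215. Wild type replicate 1 was thus the highest wild type library for AC127551.1 and the lowest for Gsr.

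Rbpms, an RNA-binding protein gene, and 2 noncoding genes inside it were all lower in level in SRA-/-. Rbpms had 152, 129.97 and 173 CPM in SRA-/-, against 191, 224 and 213 CPM in wild type. Its groups did not overlap, and its log2 fold change was -0.47 ± 0.19 (SE). Gm26632, on the opposite strand, had 9.45, 7.25 and 8.99 CPM in SRA-/-, against 14.0, 12.7 and 12.4 CPM in wild type. Its groups did not overlap either, with a log2 fold change of -0.61 ± 0.19 (SE). Gm26978, on the strand of Rbpms, had 9.88, 7.08 and 10.9 CPM in SRA-/-, against 10.8, 18.4 and 22.1 CPM in wild type. Its wild type replicate 1 overlapped the SRA-/- libraries, and the log2 fold change was -0.88 ± 0.29 (SE). Without strand, reads of unspliced Rbpms transcripts cannot be told apart from those of Gm26632. For Gm26978 this would hold with strand as well.

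Wrn, the RecQ helicase gene whose loss causes Werner syndrome in humans, lies 6.31 Mb from Msr1. Its levels were 14.3, 15.3 and 14.3 CPM in SRA-/-, against 20.99, 17.1 and 21.4 CPM in wild type. Every SRA-/- library was below every wild type library, and the log2 fold change was -0.44 ± 0.17 (SE). All 4 tested genes listed under DNA replication and repair had fold changes below 0, where 63.6% of tested neighbours and 51.7% of all genes did. The 4 genes had a median log2 fold change of -0.33, and 0 passed the adjusted test. They are Wrn, Purg, Primpol and Ing2, of which Wrn alone had an unadjusted p under 0.05 in edgeR. The sign of Primpol, at -0.22 ± 0.64 (SE), was not stable: it was 0.19 in limma-voom and ranged over -0.86 to 0.95 with 1 library left out. Ing2, a chromatin reader gene on the telomeric side, had groups that did not overlap and a log2 fold change of -0.47 ± 0.22 (SE). The values of Primpol were 3.96, 11.9 and 5.08 CPM in SRA-/- and 17.1, 4.33 and 2.93 CPM in wild type.

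**Figure D4:**
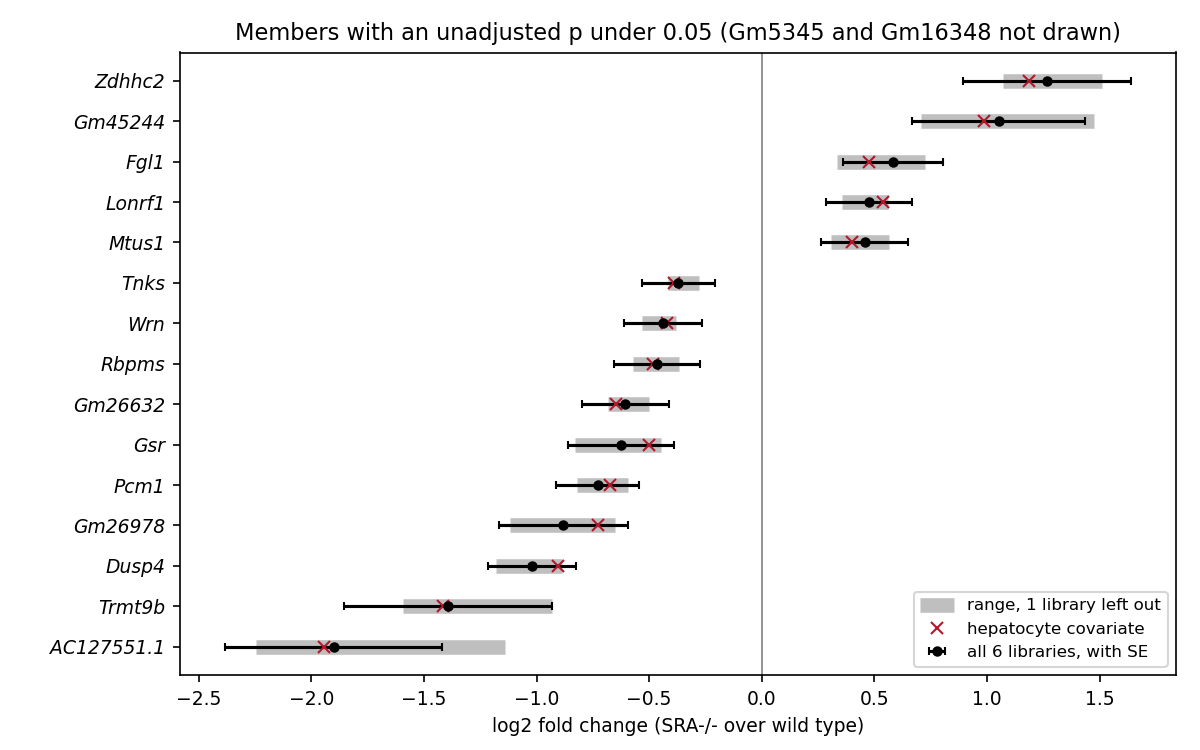
Log2 fold change of SRA-/- over wild type (horizontal axis) for the neighbours with an unadjusted p under 0.05 other than Gm5345 and Gm16348, with all 6 libraries and with each library left out in turn. Every one of these points keeps its sign; AC127551.1 moves from -1.90 to -1.14 without wild type replicate 1.

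Other tested centromeric genes near these had unadjusted p-values above 0.05. Ubxn8, between Ppp2cb and Gsr, had a log2 fold change of 0.02 ± 0.23 (SE). Saraf, a regulator of store-operated calcium entry, is among the most abundant neighbours, with 42.0 CPM per kb of exon in SRA-/- and 42.5 in wild type. Its log2 fold change was -0.02 ± 0.20. Of 9 tested genes of membrane traffic and glycosylation, 5 had fold changes above 0 and 4 below, and Zdhhc2 alone had an unadjusted p under 0.05. Among 11 tested genes of transcription and RNA handling, 3 were above 0 and 8 below, and Rbpms alone reached this level. Both lists had 0 genes past the adjusted test. Gm39157, at or below 0.515 CPM in 5 of the 6 libraries, had 1.67 CPM in SRA-/- replicate 2, and its log2 fold change was 1.25 ± 0.88.

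The most abundant neighbours per kb of exon were Slc7a2 and Acsl1, which together gave 45.4% to 50.4% of the summed CPM of all neighbours in SRA-/- and 25.4% to 53.3% in wild type. Slc7a2 encodes a cationic amino acid transporter and lies next to Gm5345. Its levels were 1007, 910.3 and 1437 CPM in SRA-/-, against 1796, 1098 and 466 CPM in wild type. The SRA-/- libraries lay inside the wild type range, and the log2 fold change was -0.00 ± 0.44 (SE). Acsl1 encodes an enzyme that activates long-chain fatty acids. It had 1022, 899.8 and 1185 CPM in SRA-/-, against 1129, 861 and 347 CPM in wild type, with a log2 fold change of 0.41 ± 0.39 (SE).

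In both genes wild type replicate 3 was the lowest library. The summed hepatocyte markers were 66616, 63008 and 122116 CPM in SRA-/- and 103268, 71820 and 35153 CPM in wild type, where replicate 3 was also the lowest; their part in these levels was not tested. Without Slc7a2 and Acsl1, the neighbours summed to 2122, 2179 and 2580 CPM in SRA-/-, against 2561, 2435 and 2392 CPM in wild type. These ranges overlapped.

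Beyond 5 Mb on the telomeric side, 44 neighbours were tested and Gm45244 was the one with an unadjusted p under 0.05. It overlaps Acsl1 on the opposite strand, so without strand its reads cannot be told apart from those of Acsl1. Its levels were 15.8, 9.99 and 10.7 CPM in SRA-/-, against 8.80, 6.11 and 2.72 CPM in wild type. The groups did not overlap, with SRA-/- the higher, and the log2 fold change was 1.05 ± 0.38 (SE). It was 0.71 without wild type replicate 3 and 0.82 without SRA-/- replicate 1.

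The innate immunity genes Irf2 and Tlr3 lie here, and Mfhas1 lies on the centromeric side. The interferon regulatory factor Irf2 had a log2 fold change of 0.03 ± 0.19 (SE). Tlr3, the sensor of double-stranded RNA, had 9.58, 5.38 and 5.17 CPM in SRA-/-, against 4.98, 7.10 and 8.65 CPM in wild type, so its groups overlapped. Mfhas1 had a log2 fold change of -0.20 ± 0.20. The choline phosphodiesterase gene Enpp6 had one of 0.43 ± 0.24 (SE). The cell surface genes Fat1 and Tenm3, a cadherin and a teneurin, had log2 fold changes of 0.29 ± 0.26 and 0.19 ± 0.46. Trappc11 had one of 0.06 ± 0.19, Fam149a one of -0.27 ± 0.21 and Cenpu one of -0.34 ± 0.65. E030037K01Rik, below 1 CPM in every library, had one of 0.63 ± 0.55.

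The 12 germ cell genes of the region, which include a run of Adam genes, were all under the filter on low counts. Tex15 had the most, with 3, 2 and 6 counts in SRA-/- and 16, 6 and 14 counts in wild type. Among the 183 neighbours that were not tested, 76 had any count, and 8 of these, or 10.5%, had groups that did not overlap, against 5.37% of all untested genes with a count. Gm45349, named after its values were seen, had 0 counts in every SRA-/- library, against 10, 4 and 4 counts in wild type. Against 6 counts over the group, it was at least 3.29-fold lower in SRA-/-. AI429214, also named after its values were seen, had 24, 22 and 4 counts in SRA-/-, against 4, 2 and 2 counts in wild type.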

How the data were processed

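RNA of 6 libraries was sequenced and, per the submitters' processing notes, handled with FastQC, STAR and featureCounts on mm39. The deposited values are raw counts, which per the file headers the authors made with featureCounts 2.0.2 over exons of GENCODE vM26 by gene name, without strand and counting each mate. No version of STAR and no trimming step is stated there. Groups came from the titles. Counts were tested with edgeR 4.0.16 in R 4.3.3 (quasi-likelihood, robust; filterByExpr; TMM), two-sided, with Benjamini-Hochberg adjustment over 20541 genes at 0.05. An exact permutation test of 3 against 3 libraries cannot go below 0.1 and was not used. SE is the absolute log2 fold change over the square root of F. The script was tested on simulated data. DESeq2 1.42.0, limma 3.58.1 (voom) and other settings were alternatives. Gene types came from GENCODE of another build, by symbol, for 273 of 282 genes. Sequence matches (blastn, e-value up to 1e-20) used its transcripts, for Gm5345, Gm16348 and a few other noncoding neighbours alone. Named genes were those past the adjusted test, the 10 smallest p per direction, the 5 nearest per side, up to 3 highest per role list with any at an unadjusted p under 0.05, and genes at 0 in one group with at least 6 counts in each library of the other. The genes and lists were chosen with earlier results of these data known. One tested gene is not reported by name here.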

Additional observations from a re-analysis of the deposited data

How the results depend on the processing

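Over 50 named results and 746 alternative values, 681 kept their direction and side of the threshold, 6 lost the call, 5 gained it and 54 turned in sign. The cause of these changes was not tested. The number of called neighbours was 4 in DESeq2, which called 0.331% of all genes. It was 1 with the replicate number as a block, where 0.0243% of all genes were called. It was 0 to 3 with each library left out in turn, where 0.014% to 0.189% of all genes were called. Neighbours with an unadjusted p under 0.05 numbered 11 with the block, where 2.18% of all genes passed. They numbered 12 to 18 with a library left out, where 2.02% to 7.01% of all genes passed. Neighbours with groups that did not overlap numbered 20 to 35 with a library left out, when 12.1% to 24% of all genes did so. A window of 5 Mb held 32 tested genes. Of these, 10, or 31.2%, had an unadjusted p under 0.05 and 11, or 34.4%, had groups that did not overlap. A window of 20 Mb held 212, with 24 and 31 such genes, or 11.3% and 14.6%. All of chromosome 8 without Msr1 and Nrg1 held 1078, with 56 and 104, or 5.19% and 9.65%. Over all tested genes 3.22% and 7.30% did so. The median log2 fold change of the 1078 genes was -0.00045. In limma-voom 25 neighbours had an unadjusted p under 0.05, where 11.7% of all tested genes did. Under the block Gm16348 was called and Gm5345 was not. Whether the numbers pair the samples is not known. Libraries of the same number deviated from their group means with correlations of -0.287, -0.143 and -0.131 over 20541 genes. Of the 6 libraries, 0 correlated best with their own number. Deviations from a mean of 3 libraries sum to 0 within each group, so these correlations cannot decide whether samples were paired. With library totals as scaling, the log2 fold change turned to -0.026 for Ubxn8, 0.015 for Slc7a2 and -0.013 for Irf2. With no filter on low counts, the log2 fold change turned to 0.0013 for Slc7a2. In limma-voom, the log2 fold change turned to -0.11 for Ubxn8, -0.00895 for Gm39157, -0.036 for Vps37a, 0.0033 for Mtmr7, 0.078 for Slc7a2, 0.016 for Klkb1, 0.19 for Primpol and -0.054 for Irf2. With the replicate number as a block, the log2 fold change turned to -0.012 for Ubxn8, 0.15 for Slc7a2, 0.053 for Klkb1 and 0.10 for Primpol. Another setting took the mean log2 CPM of the hepatocyte markers as a covariate. There the log2 fold change turned to -0.060 for Ubxn8, 0.064 for Prag1, 0.040 for AC168314.1 and -0.071 for Vps37a. It turned to -0.16 for F11, -0.013 for Trappc11 and 0.023 for Wwc2. With each library left out in turn, it ranged over -0.21 to 0.20 for Ubxn8, -0.19 to 1.84 for Gm39157, -0.17 to 0.11 for Saraf, -0.32 to 0.080 for Prag1, -0.17 to 0.080 for AC168314.1, -0.41 to 0.045 for Micu3, -0.035 to 0.25 for Cnot7, -0.11 to 0.13 for Vps37a, -0.47 to 0.16 for Mtmr7, -0.37 to 0.52 for Slc7a2, -0.24 to 0.49 for F11, -0.38 to 0.48 for Klkb1, -0.94 to 0.74 for Cenpu, -0.86 to 0.95 for Primpol, -0.065 to 0.15 for Irf2, -0.091 to 0.21 for Trappc11, -0.28 to 0.077 for Wwc2 and -0.24 to 0.76 for Tenm3.

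The depth allows no statement on the 107 neighbours with 0 counts in all libraries beyond the limit of 6 counts per library.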
